A study of Mus musculus with 24 samples.

Results

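Collagens are the structural proteins of connective tissue and of basement membranes. Mouse genes for their α chains carry symbols built as Col, a type number, a and a chain number, and all 44 protein-coding genes of the mouse genome build mm10 with such a symbol were taken, out of 21900 protein-coding genes. They covered 27 collagen types. Their chromatin was read from CUT&RUN, a method in which an antibody directs a nuclease to cut and release the DNA around its target. The libraries came from a pair of mouse melanoma cell lines grown in DMEM/F12 medium with fetal bovine serum and penicillin-streptomycin: the line labelled Kmt2d WT 971 (10 peak lists, here the WT line) and the line labelled Kmt2d Mutant 493 (12 peak lists, here the mutant line). Kmt2d encodes a histone H3 lysine methyltransferase, and the series asks what its loss does to chromatin in melanoma. Each target had 1 library per line, so no difference below has a replicate check, no p-value is given, and line and genotype cannot be told apart.

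The targets with a list in both lines were H3K4me3 (the histone mark of active or poised promoters), Menin (a scaffold of other H3K4 methyltransferase complexes), UTX (an H3K27 demethylase that sits in the KMT2D complex), TFAP2A (a transcription factor of the neural crest and melanocyte lineage) and 5 subunits of SWI/SNF chromatin remodellers, namely ARID1A, SMARCC1, ARID2, PBRM1 and BRD9. KMT2D itself had a list in the WT line only. TFAP2B and SOX10, further neural crest factors, had lists in the mutant line only, SOX10 with a Bethyl antibody (SOX10 T) and a CST antibody (SOX10 U). Both IgG samples, 1 per line, have no peak list and are not analysed here. At Kmt2d itself, H3K4me3 was called at the gene end in both lines, with fold enrichments of 22.1 (WT) and 34.0 (mutant), and these lists test neither the mutation nor the protein.

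An α chain is synthesised in the endoplasmic reticulum, hydroxylated, glycosylated, folded with partner chains into a helix, and exported. Fibrillar collagens such as types I, III and V form the cables of the dermis and of tumour stroma, with type V setting fibril diameter. Network collagens such as types IV and VIII build the sheet of basement membranes, type VI forms beaded microfilaments around cells, and the FACIT collagens decorate fibril surfaces. Fibroblasts make most of the collagen of skin, while melanoma cells can make some collagens themselves. In vertebrate genomes the type IV genes lie head to head in pairs that share a promoter.

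A peak was assigned to a gene end when it overlapped the 1 kb on either side of the gene's first or last base, since the gene table gives no strand. The strand of 35 members was known from RefSeq promoters, and for the other 9 the ends are called the end of lower or of higher coordinate. Peak strength is the deposited fold enrichment at the summit over local background. It depends on each library's depth, so it is read within a list, as the percent of that list's peaks with a lower fold enrichment, and the WT and mutant values of a gene are set side by side without a ratio. The mutant libraries of H3K4me3, Menin, ARID1A, TFAP2A and UTX had been called at 1.58 to 1.87 times the depth of their WT counterparts, and that of SMARCC1 at 0.394 times, by reconstruction from the deposited values. Counts of mutant-only genes and of peaks per locus are therefore also given after the deeper list was thinned to equal depth, and single peaks are given as called.

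The promoters of the 3 members with the strongest H3K4me3 peak present in 1 line only, all in the mutant line, and of Col5a3, added after its values were seen because its start held peaks of 8 lists, are shown here so that the peaks described below can be placed on their sequence. Each is the 250 bases before the annotated start, 5′ to 3′ on the gene's own strand, from RefSeq on mm10. Capitals mark matches to the GC box (GGGCGG) or the CCAAT box (CCAAT) on either strand, a match on the other strand reading CCGCCC or ATTGG, and no other searched motif matched. Col6a3 lies at chr1:90843972-90844221 on the minus strand, Col4a6 at chrX:141474077-141474326 on the minus strand, Col11a1 at chr3:114030290-114030539 on the plus strand, and Col5a3 at chr9:20815068-20815317 on the minus strand.
Col6a3: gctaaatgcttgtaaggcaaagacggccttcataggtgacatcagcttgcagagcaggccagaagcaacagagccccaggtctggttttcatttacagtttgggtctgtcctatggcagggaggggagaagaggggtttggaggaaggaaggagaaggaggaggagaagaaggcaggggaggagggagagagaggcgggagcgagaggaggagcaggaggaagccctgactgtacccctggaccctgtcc
Col4a6: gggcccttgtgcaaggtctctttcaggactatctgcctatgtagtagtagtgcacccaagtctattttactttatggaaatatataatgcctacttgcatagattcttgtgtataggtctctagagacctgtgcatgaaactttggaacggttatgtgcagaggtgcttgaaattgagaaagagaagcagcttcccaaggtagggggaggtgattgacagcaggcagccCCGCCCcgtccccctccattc
Col11a1: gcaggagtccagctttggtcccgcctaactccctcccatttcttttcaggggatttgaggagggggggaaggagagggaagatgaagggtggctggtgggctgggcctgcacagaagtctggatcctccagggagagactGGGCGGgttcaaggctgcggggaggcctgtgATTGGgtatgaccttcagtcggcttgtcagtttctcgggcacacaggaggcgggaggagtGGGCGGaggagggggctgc
Col5a3: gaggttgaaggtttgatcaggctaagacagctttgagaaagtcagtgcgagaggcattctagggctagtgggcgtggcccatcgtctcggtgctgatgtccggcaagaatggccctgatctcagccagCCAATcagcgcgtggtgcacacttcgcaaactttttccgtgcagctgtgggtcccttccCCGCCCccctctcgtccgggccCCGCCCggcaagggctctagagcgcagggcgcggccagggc
These promoters differ in CpG content. The Col6a3 promoter has a GC content of 57.2% but only 3 CpG dinucleotides, 0.17 of the number that its base composition would give, and no match to a motif searched. The Col4a6 promoter also has 3 CpG (0.21 of that number) and 1 GC box at 21 to 16 bases before the start. The Col11a1 promoter has 7 CpG, 2 GC boxes and 1 CCAAT box. The Col5a3 promoter has 17 CpG (0.69), 2 GC boxes and 1 CCAAT box.

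H3K4me3 marked 17 of the 44 collagen genes in the WT line, where 49.3% of all protein-coding genes had a gene-end peak, and 24 in the mutant line, where 53.8% did. All 17 were shared by both lines (48.7% of all genes). No collagen gene had the mark in the WT line only (0.543% of all genes), and 7 had it in the mutant line only (5.09% of all genes): Col6a3, Col4a3, Col4a4, Col4a6, Col11a1, Col14a1 and Col2a1. Col4a3 and Col4a4 shared 1 peak. After thinning to equal depth all 7 were still marked in the mutant line only. The shares of all genes with a gene-end peak are from the lists as called and are not given after thinning. With the summit required inside the 1 kb window, Col11a1, Col15a1 and Col1a1 were unmarked in both lines. Col3a1, Col5a2 and Col27a1 then kept the mutant mark alone. When the longer list was cut to the length of the shorter, Col14a1 was unmarked in both lines. With a stricter peak threshold, a −log10 q of at least 5, Col14a1 and Col2a1 were unmarked in both lines. Col5a3 and Col25a1, marked in both by the main rule, were then left with the mutant mark alone. A 0.5 kb window left Col5a3 and Col27a1 with the mutant mark alone, Col15a1 with the WT mark alone and Col1a1 unmarked in both lines. Members marked in both lines had a median of 15 CpG in the 250 bases before the start (15 genes with a promoter, range 0 to 31). Those marked in the mutant line only had a median of 5 (4 genes, 3 to 10), those without the mark 7.5 (16 genes), and all promoters of protein-coding genes 10.

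**Figure D1:**
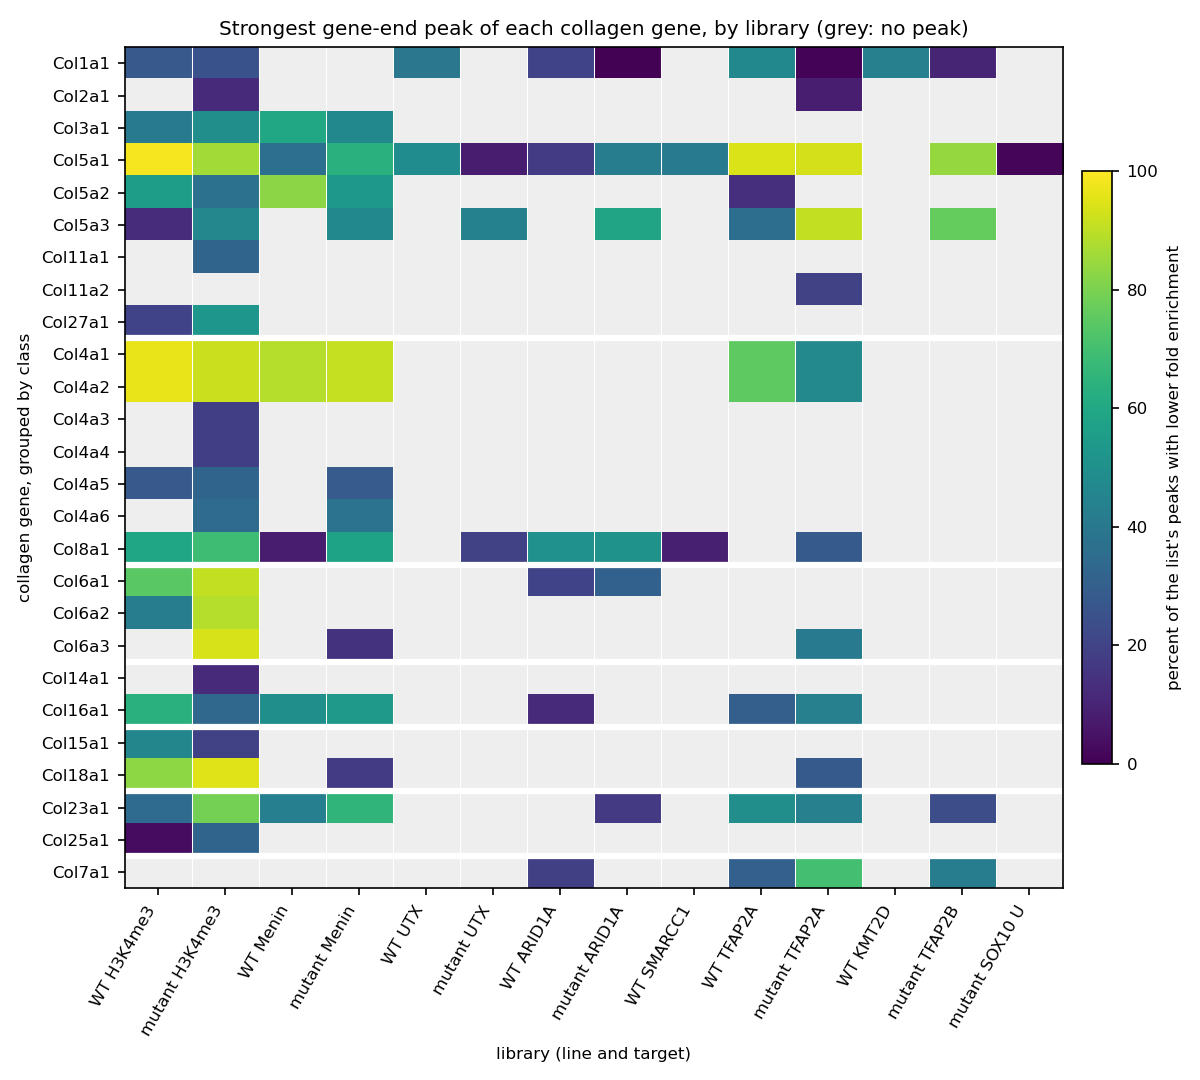
Strongest gene-end peak of each of the 26 collagen genes with any such peak (rows, grouped by class) in each library with at least 1 (columns). Colour gives the percent of that library's peaks with lower fold enrichment, from 0 to 100, and grey means no peak. Col5a1 and the Col4a1-Col4a2 pair are bright in both H3K4me3 columns, while Col6a3 is bright in the mutant column and grey in the WT column. The brighter Col23a1 peaks lie at its 3′ end, beside the gene Phykpl.

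Among the 11 fibrillar genes, Col1a1, Col3a1, Col5a1, Col5a2, Col5a3 and Col27a1 had gene-end H3K4me3 in both lines, Col2a1 and Col11a1 in the mutant line only, and Col1a2, Col11a2 and Col24a1 in neither. Col5a1, which encodes the main chain of the fibril-nucleating type V collagen, had the strongest peak of any collagen gene in the WT line. Its fold enrichment was 28.4 in the WT line, above 98.6% of that list, over 4466 bp, and 31.6 in the mutant line, above 86.3% of the list, over 3237 bp. Its start was the collagen region with peaks of the most lists, 13. TFAP2A had 34.0 in the WT line (94.4% of the list below it) and 36.5 in the mutant line (93.4%), and TFAP2B had 15.99. Gene-end ARID1A had 5.58 and 8.63, Menin 6.09 and 7.83 and UTX 9.41 and 4.35. SMARCC1 (7.16) was called in the WT line alone, and SOX10 U had a weak peak (3.59) 778 bp inside the gene, the only SOX10 peak at a collagen gene end. Col3a1, the chain of type III collagen that is abundant in skin, had values of 9.54 (WT) and 16.3 (mutant). Col5a2, which pairs with Col5a1 and lies 24624 bp from Col3a1, had 12.9 and 11.5. Col27a1 had 5.68 and 17.3, with summits at 1633 bp (WT) and 1861 bp (mutant) from its first base, beside the annotated start that lies 1403 bp in. A weaker mutant peak (7.04) had its summit 260 bp from the first base. The peaks at Col1a1, the main chain of type I collagen, were in the lower part of both lists, at 6.88 (27.9% of the WT list below it) and 7.72 (25.04% of the mutant list). Their summits lay 1167 bp (WT) and 1647 bp (mutant) inside the end of lower coordinate, outside the 1 kb window that the peaks overlapped.

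Col1a2, the partner chain of Col1a1 in type I collagen, had no H3K4me3 peak in its gene or in the 20 kb on either side in either line. Its gene body did hold ARID1A peaks in both lines, at 1889 bp (fold enrichment 9.97) and 25493 bp (10.97) from the start in the WT line. The mutant peaks lay at 1934 bp (9.34) and 25586 bp (5.80). SMARCC1 was called at the same places in the WT line, with 6.27 and 8.43. Col1a2 had no gene-end peak of any list, while Col1a1 had gene-end peaks of several targets. Near its end of lower coordinate (chr11:94936224-94953042 is the gene) the WT line had peaks of KMT2D (8.60), UTX (8.47), ARID1A (5.996) and TFAP2A (8.71). The mutant line had TFAP2B there (4.44) and weak ARID1A (3.67) and TFAP2A (3.39) peaks, both lost on thinning to equal depth, and no UTX peak.

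Col1a1 was the only collagen gene with a gene-end KMT2D peak, where 10.2% of all genes had one. Its locus, meaning here the gene plus 20 kb on each side, held 4 of the 21 KMT2D peaks of all collagen loci, more than any other. Besides the gene-end peak these had fold enrichments of 9.76 at 7291 bp and 14.2 at 2458 bp before the end of lower coordinate, and 5.33 at 5355 bp beyond the end of higher coordinate. On the far side of the gene the mutant line had a SOX10 site called with both antibodies, 12.1 with SOX10 T and 11.1 with SOX10 U, at 2301 bp and 2330 bp beyond the end of higher coordinate. A mutant H3K4me3 peak of 14.3 overlapped it, and no peak of the WT line did.

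Col5a3, the third chain of type V collagen, had a weak H3K4me3 peak in the WT line (4.57, 238 bp wide) and a stronger one in the mutant line (14.9, 855 bp). TFAP2A at the same start had 7.199 in the WT line (36.1% of the list below it) and 30.5 in the mutant line (90.8%). The mutant line added peaks of ARID1A (11.5), Menin (6.54), UTX (6.96) and TFAP2B (12.4), for which the WT line had none, TFAP2B having no WT list. Each of these peaks lay within the same 968 bp, chr9:20814290-20815257, and that stretch reaches into the promoter shown above. The summits lay 88 to 711 bp inside the gene, except that of UTX, 46 bp before the start. A region inside the gene, chr9:20812518-20813399, was called in 9 lists. ARID1A had 14.6 (WT) and 14.9 (mutant), UTX 6.77 and 6.07, and TFAP2A 7.36 and 20.3. KMT2D (4.97) and SMARCC1 (7.83) were called there in the WT line and TFAP2B (6.196) in the mutant line. Deeper in the gene, SOX10 U peaks of 14.5 and 6.33 at 20726 bp and 24578 bp from the start each overlapped mutant UTX and ARID1A peaks and no WT peak.

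Col2a1 and Col11a1, chains of the cartilage collagens, had gene-end H3K4me3 in the mutant line only. The Col11a1 peak was 2047 bp wide with a fold enrichment of 9.69, above 32.1% of the list, and it was the sole paired-target peak at the locus. Its summit lay 1391 bp inside the gene. The Col2a1 peak was 309 bp wide with 5.42 and overlapped a TFAP2A peak of 4.24 that was lost on thinning. Further inside Col2a1, chr15:98001288-98002664, H3K4me3 was called in both lines (3.58 WT, 8.62 mutant). Neither gene had a gene-end peak of any WT list. Col11a2, the partner of Col11a1, had no H3K4me3 but a mutant TFAP2A peak (5.09) that also lay at the end of its neighbour Rxrb and was lost on thinning.

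The network class had the next most marks: of 9 genes, Col4a1, Col4a2, Col4a5 and Col8a1 were marked in both lines, Col4a3, Col4a4 and Col4a6 in the mutant line only, and Col8a2 and Col10a1 in neither. Col4a1 and Col4a2, the chains of the ubiquitous basement membrane network, overlap by 85 bp at their starts on chromosome 8 and shared their peaks. The H3K4me3 peak there had a fold enrichment of 25.7 in the WT line (96.6% of the list below it, 4348 bp) and 35.3 in the mutant line (91.8%, 2695 bp). Menin at the same start had 12.4 (88.8%) and 13.97 (91.1%), the strongest Menin peaks at any collagen gene end. The stronger WT TFAP2A peak there (15.4, 75.1% of its list below it) overlapped a mutant TFAP2A peak of 6.79 (36.6%). At a separate site of higher coordinate, a WT TFAP2A peak of 7.59 (37.5%) overlapped a mutant one of 7.67 (46.9%). Col8a1, a chain of the network under corneal and vascular endothelium, had 13.6 over 4437 bp in the WT line and 23.8 over 2495 bp in the mutant line.

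The type IV chains of kidney and other specialised basement membranes differed between the lines. Col4a3 and Col4a4, which overlap by 114 bp, shared 1 narrow H3K4me3 peak in the mutant line (6.40, 515 bp, 18.4% of the list below it), and the WT line had none at their shared start. The WT list did hold a broad peak beyond the far end of Col4a3, with its summit at 3278 bp, whose near edge a 2.5 kb window counts. Col4a6 and Col4a5 are separated by 1274 bp on the X chromosome. Col4a5 was marked in both lines (6.88 and 9.69), while Col4a6 had a mark of its own in the mutant line only (10.7, 1062 bp), with a Menin peak of 5.97 under it. With the 2.5 kb window the WT peak of Col4a5 also counted for Col4a6. The Col4a6 promoter shown above has few CpG, 3, where that of Col4a5 has 10. CpG number did not separate the groups gene by gene. Col4a4, marked in the mutant line only, also has 10, while Col6a1 and Col3a1, marked in both lines, have 3 and 0.

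Col6a3 had the strongest gene-end H3K4me3 peak of those called in 1 line only. Col6a1, Col6a2 and Col6a3 encode the chains that assemble together into type VI microfilaments, and the first pair was marked in both lines: Col6a1 had fold enrichments of 17.3 (WT) and 34.6 (mutant), and Col6a2 9.81 and 33.0. Col6a3 had 37.0 in the mutant line, above 93.8% of the list, over a domain of 4630 bp, and no H3K4me3 peak anywhere in its gene or the 20 kb on either side in the WT line. The Col6a3 call was the same under each of the 8 alternatives tried for windows, thresholds, depth and list length. In the mutant line the start also had Menin (4.68) and TFAP2A (6.91), the Menin peak being lost on thinning. The other 5 genes of the class, Col6a4, Col6a5, Col6a6, Col26a1 and Col28a1, had no gene-end peak of any list.

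The WT line was not without peaks at Col6a3. At 9007 bp inside the gene ARID1A had a fold enrichment of 27.3 in the WT line (94.99% of the list below it) and 54.3 in the mutant line (99.0%), and SMARCC1 had 34.8 in the WT line (99.1%). UTX was called there in both lines, 9.72 and 11.6. TFAP2A (21.7) and SOX10 U (8.77) were called there in the mutant line, and the WT TFAP2A list had no peak at the locus. The locus as a whole held 6 paired-target peaks in the WT line against 16 in the mutant line, or 14 after thinning.

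**Figure D2:**
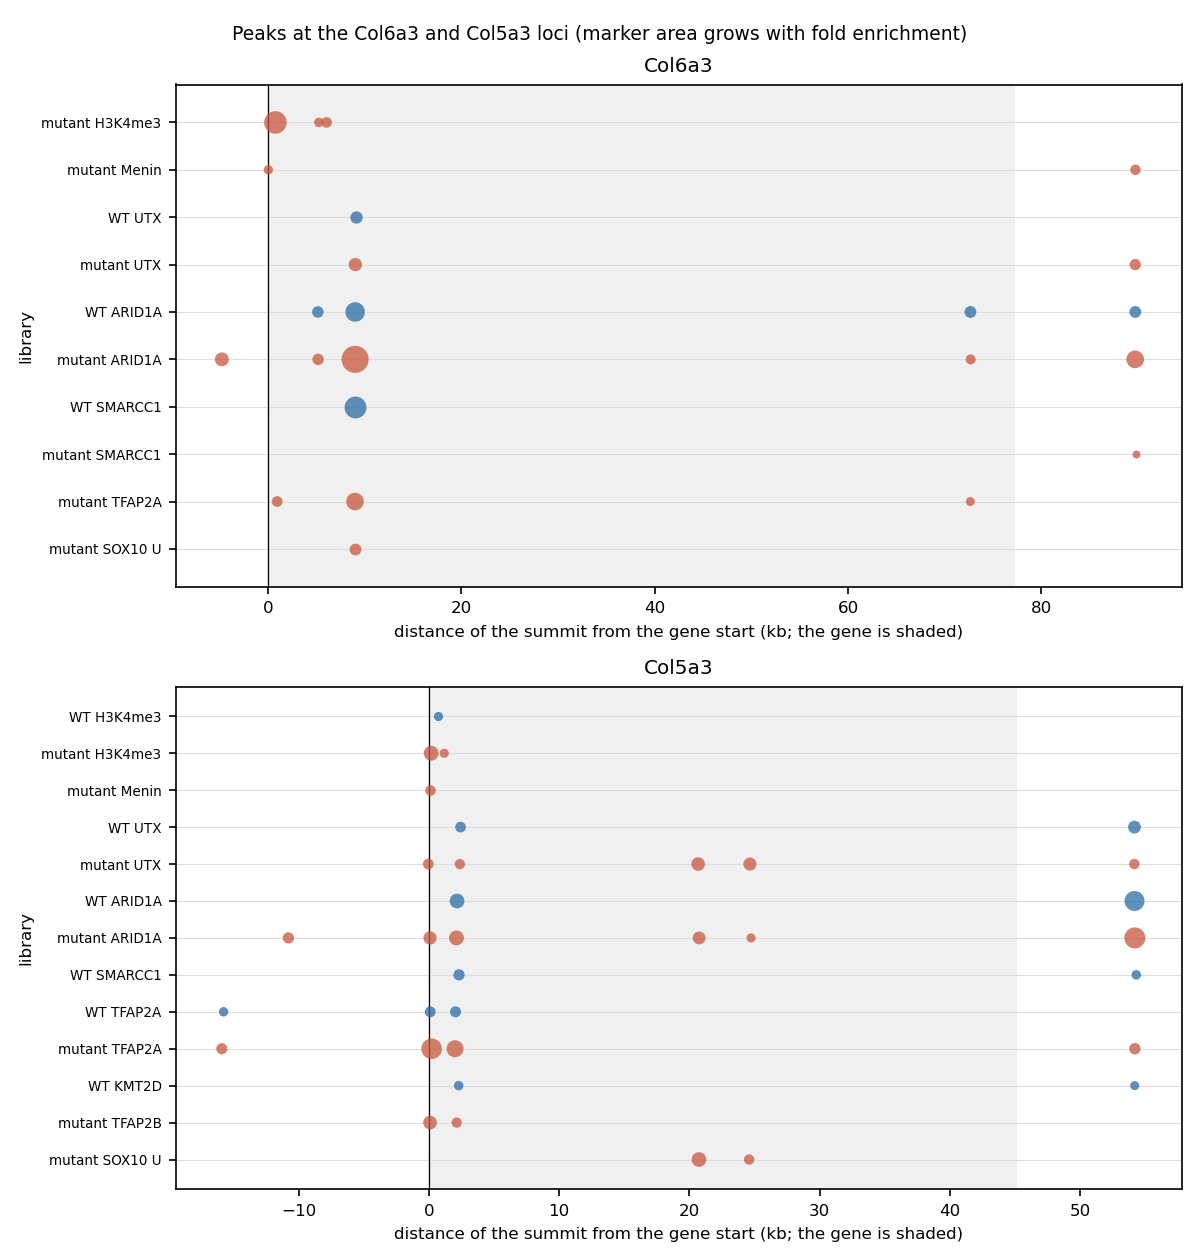
Peaks of each library (rows) at the Col6a3 (top) and Col5a3 (bottom) loci, by distance of the summit from the annotated gene start in kb, with the gene shaded. Blue circles are WT libraries, red circles mutant libraries, and circle area grows with fold enrichment. At Col6a3 the ARID1A, SMARCC1 and UTX circles about 9 kb inside the gene are present in the WT line, while the H3K4me3 circles at the start are mutant only. At Col5a3 most mutant rows have a circle at the start.

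Of the 9 FACIT genes, Col16a1 was marked in both lines (14.7 and 10.1), Col14a1 in the mutant line only, and the other 7 in neither. Col16a1 had the strongest transcription factor site of any collagen locus. A region inside the gene, chr4:130050120-130051268, was called in 12 lists, with the TFAP2B summit 2598 bp from the start. TFAP2A had a fold enrichment of 127 there in the WT line against 180 in the mutant line, above 99.95% and 99.96% of those lists, and TFAP2B had 72.0 (99.7%). ARID1A followed with 55.8 (WT) and 66.6 (mutant), then UTX with 20.8 and 5.22, and SMARCC1 with 20.4 and 7.73. KMT2D (11.8) and ARID2 (8.82) were called there in the WT line and SOX10 U (4.53) in the mutant line. Neither H3K4me3 nor Menin was called in that region in either line.

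A region 10500 bp before the Col16a1 start, chr4:130036832-130037586, had peaks of 8 lists, most of them WT. UTX had 31.2 in the WT line and no mutant peak, KMT2D had 18.4, TFAP2A 33.3 (WT) and 16.97 (mutant), and ARID1A 18.5 and 10.04. The gene also held SOX10 U peaks at 7136 bp (5.10) and 8262 bp (15.4) from the start, both with mutant ARID1A and TFAP2A peaks and with no WT peak.

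Col14a1, a collagen of fibril surfaces, had no peak of any of the 10 WT lists in its locus and 8 paired-target peaks in the mutant line, or 5 after thinning. The H3K4me3 peaks at its end of lower coordinate were weak, 5.41 (496 bp) and 4.29 (208 bp), and did not pass the stricter threshold. Mutant UTX was called at 26041 bp (4.35), 62617 bp (8.67) and 109675 bp (4.35) inside the gene, and mutant ARID1A at 62621 bp (10.7) and 109752 bp (7.92). SOX10 U had 5 peaks at the locus, with fold enrichments of 10.2, 5.44, 12.7, 7.24 and 14.5. Mutant UTX overlapped 2 of these and mutant TFAP2A (8.46) another, while the other 2 overlapped no peak of another list. The number of SOX10 U peaks was the highest of any collagen locus.

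**Figure D3:**
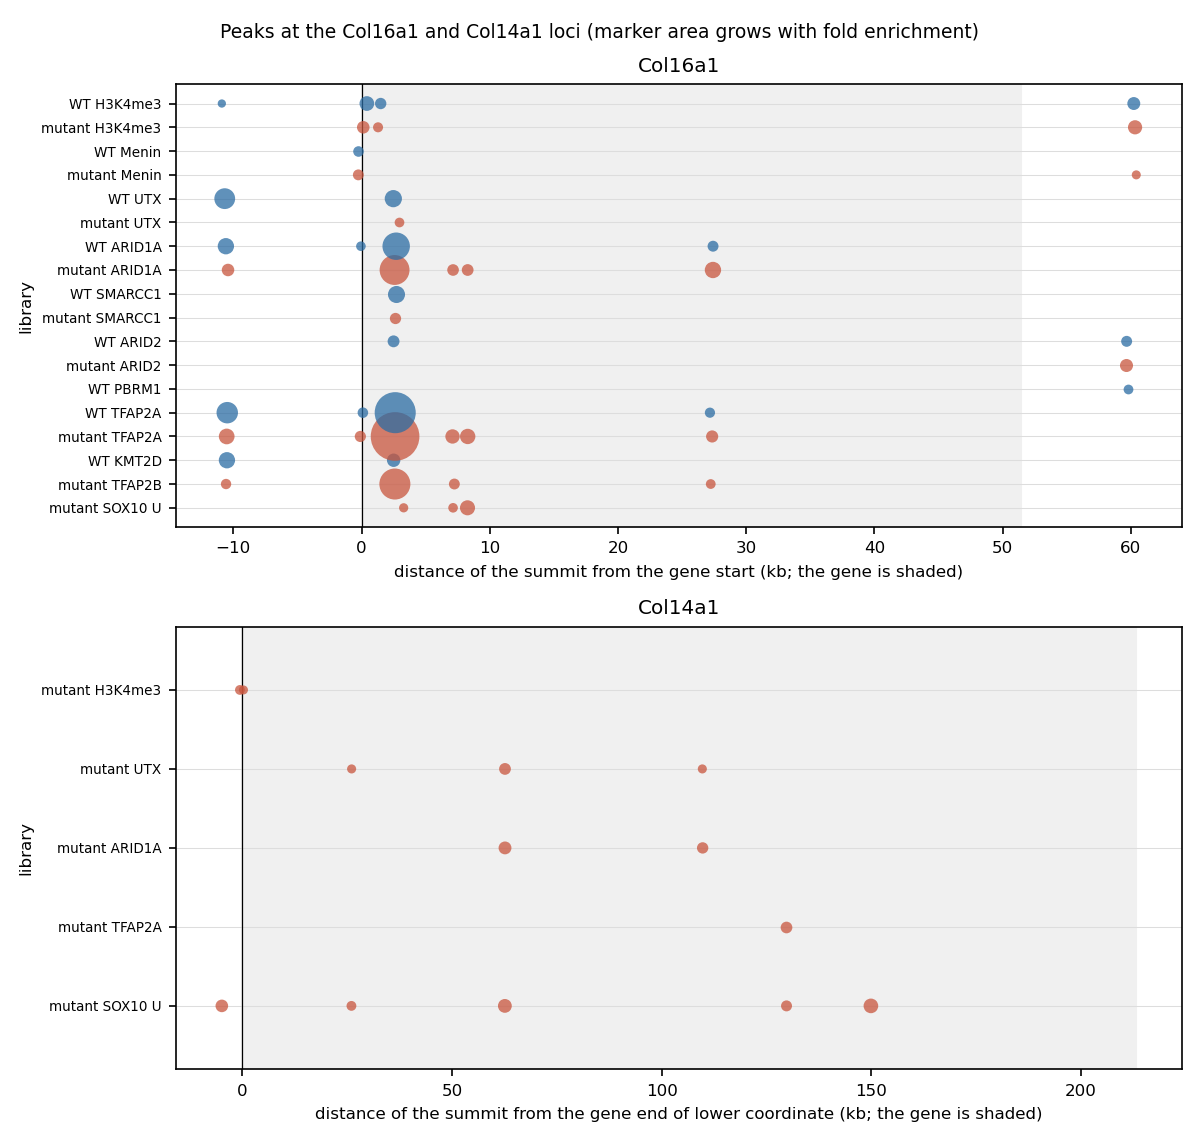
Peaks of each library (rows) at the Col16a1 (top) and Col14a1 (bottom) loci, by distance of the summit in kb from the annotated start of Col16a1 and from the end of lower coordinate of Col14a1, with the genes shaded. Blue circles are WT libraries, red circles mutant libraries, and circle area grows with fold enrichment. The largest circles are TFAP2A and TFAP2B just inside the start of Col16a1. All rows drawn at Col14a1 are mutant libraries.

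Both multiplexins, basement membrane collagens whose tails are released as signalling fragments, were marked in both lines. Col18a1, the source of endostatin, had 19.7 (WT) and 38.6 (mutant, above 95.1% of the list), all at its distal annotated start, and its internal start 52825 bp away had no peak of any list. Col15a1 had 10.6 and 6.57. Of the 4 transmembrane collagens, Col23a1 was marked at its start (5.68 and 9.66) and Col25a1 at its start (3.68 and 9.69), and Col13a1 and Col17a1, the hemidesmosome collagen of keratinocytes, had no gene-end peak. A stronger H3K4me3 peak at the other end of Col23a1 (8.19 and 28.1) lay at the end of the neighbouring gene Phykpl. Col7a1, the anchoring fibril of the dermal junction, had no H3K4me3 but had TFAP2A before its start, 6.81 in the WT line against 13.2 in the mutant line, with TFAP2B (6.58).

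The other targets had fewer gene-end peaks. Menin was called at 8 members in the WT line (31.6% of all genes) and 13 in the mutant line (37.9%), and each of these also had H3K4me3 in that line. No member had Menin in the WT line only (1.92% of all genes) and 5 had it in the mutant line only (8.28%), a number that was 2 after thinning. TFAP2A was called at 9 members (24.6%) and 13 members (34%). It was called at Col5a2 in the WT line only (1.21%), and at Col6a3, Col8a1, Col18a1, Col2a1 and Col11a2 in the mutant line only (10.6%), a number that was 3 after thinning. Thinning also shortened the whole mutant lists, from 16773 to 11096 peaks for Menin and from 18530 to 13951 for TFAP2A. The shares of all genes are from the lists as called, so the thinned numbers cannot be compared with them. ARID1A was called at 6 members in each line (15.7% and 20.9% of all genes), UTX at 2 and 3 (11.2% and 8.86%), and SMARCC1 at 2 and 0 (2.72% and 0.598%). ARID2, PBRM1 and BRD9 had no gene-end peak at any member. Of all genes, 0.986% (WT) and 0.932% (mutant) had ARID2, 1.9% and 2.03% had PBRM1, and 0.21% and 0.0183% had BRD9. TFAP2B was called at 5 members (21.9%), SOX10 U at Col5a1 alone (3.59, 3.83% of all genes) and SOX10 T at none (0.991%). Every share of collagen genes was below that of all genes in the same list except for mutant H3K4me3 and WT SMARCC1. As 1 of 44 genes is already 2.27%, a share of 0 says little for lists with 2.03% or less of all genes.

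**Figure D4:**
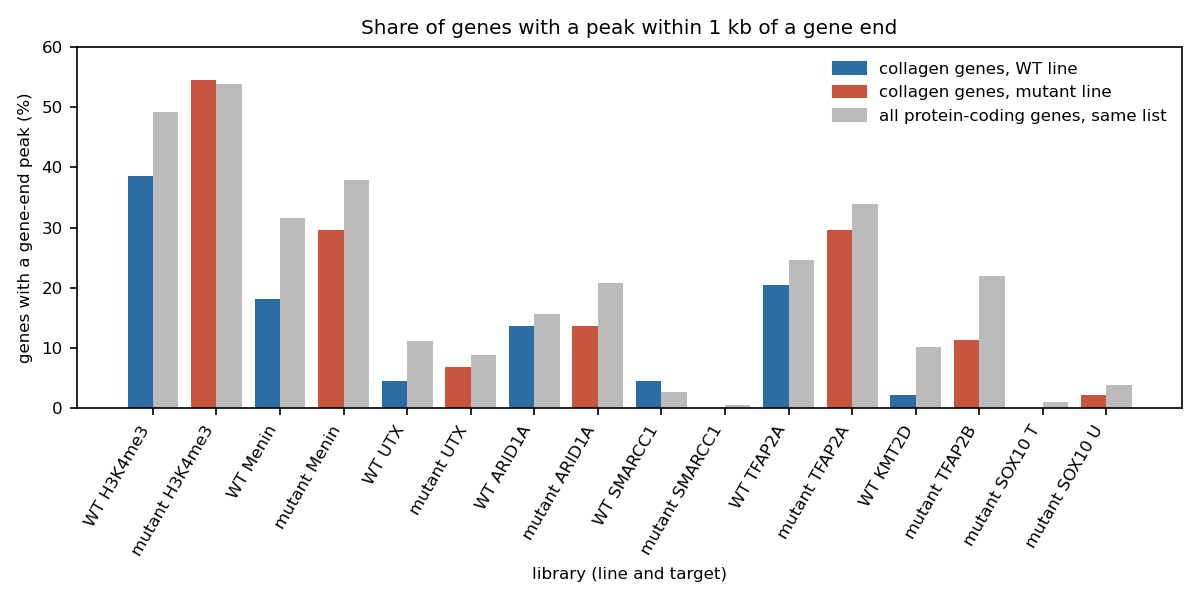
Percent of genes with a peak within 1 kb of a gene end, by library, leaving out ARID2, PBRM1 and BRD9, which had none at a member. Blue (WT) and red (mutant) bars are the 44 collagen genes, and grey bars all 21900 protein-coding genes in the same list. Collagen bars are shorter than the grey bars beside them except for mutant H3K4me3 and WT SMARCC1.

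In all, 26 of the 44 genes had a gene-end peak of at least 1 list (56.9% of all genes). The other 18 were not alike. Col9a1 had no peak of any list in its locus, and 9 of the 18, Col9a1 included, had at most 5. At the other extreme Col12a1, a FACIT collagen of dense connective tissue, had an H3K4me3 peak of 18.9 in the WT line against 18.5 in the mutant line whose summits lay 3308 bp and 3226 bp inside the annotated end of higher coordinate, outside the 1 kb window. The 2.5 kb window counted it as marked in both lines. Col28a1 had 7 paired-target peaks in the WT line against 15 in the mutant line, among them a site inside the gene 21494 bp from the start called with both SOX10 antibodies (14.2 with SOX10 U, 13.1 with SOX10 T). Its H3K4me3 peaks lay at the end of the neighbouring gene Mios.

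Most peaks of collagen loci lay away from gene ends. The 44 loci merged into 37 stretches covering 7.01 Mb, and the members were long, with a median of 114410 bp against 17146 bp for all genes. The 9 paired targets had 305 peaks there in the WT line against 345 in the mutant line, or 289 and 293 after thinning. Per Mb, H3K4me3 had 0.58 (WT) and 0.74 (mutant) of the density at the loci of all genes and Menin 0.32 and 0.58. ARID1A, by contrast, had 1.32 and 1.22 and SMARCC1 1.19 in each line. SOX10 U had 1.70 and SOX10 T, with 5 peaks, 1.29 of the density at all gene loci. TFAP2B had 0.72, KMT2D 0.82, TFAP2A 1.07 (WT) and 0.99 (mutant), and UTX 1.03 and 1.19. The regions named in this section were chosen after their values were seen.

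The number of paired-target peaks per locus differed in both directions. It was higher in the mutant line by 8 or more at 5 loci (1.62% of all genes), namely Col6a3 (6 and 16), Col8a1 (13 and 21), Col5a3 (10 and 18), Col28a1 (7 and 15) and Col14a1 (0 and 8). It was lower by 8 or more at 2 loci (0.799%), Col5a1 (27 and 15) and Col15a1 (16 and 6). At a difference of 4 or more, 12 loci were higher (10.5% of all genes) and 5 were lower (4.56%), the further lower ones being Col4a2 (26 and 20), Col22a1 (4 and 0) and Col5a2 (14 and 10). No paired-target peak was called in either line at 1 locus, Col9a1 (23.8% of all genes). The shares of all genes, here and after thinning, are not matched for length, and the members were longer (median 114410 bp against 17146 bp). Overlapping loci, such as those of Col4a1 and Col4a2, each count the peaks they share.

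Thinning to equal depth left fewer loci with more peaks in the mutant line. At the difference of 8, 2 loci were then higher (0.534% of all genes), Col6a3 (6 and 14) and Col5a3 (9 and 18), while Col28a1 had 7 and 14, Col8a1 12 and 17 and Col14a1 0 and 5. Lower by 8 or more were 3 loci (1.29%), Col5a1 (27 and 13), Col15a1 (16 and 5) and Col4a2 (24 and 16). At the difference of 4, 8 loci were higher (4.3%) and 5 lower (7.09%), Col4a1 (19 and 15) now among the latter and Col5a2 (11 and 10) no longer.

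At Col5a1 the WT line had 10 ARID1A, 4 UTX and 4 SMARCC1 peaks, and the mutant line 6, 1 and 0, while H3K4me3 was 1 peak in each. At Col15a1 the WT line had 6 ARID1A, 3 UTX and 3 SMARCC1 peaks against 1, 0 and 0. At Col4a2 UTX had 6 peaks in the WT line against 2 in the mutant line, at Col5a2 SMARCC1 had 4 and 0, and at Col22a1 the WT peaks were of ARID1A, SMARCC1 and UTX. Among loci with more peaks in the mutant line, Menin had 3 and 7 at Col8a1, and UTX 1 and 4 and ARID1A 2 and 5 at Col28a1. The mutant SMARCC1 list was called at the lower depth and held 2910 peaks against 11507 in the WT list.

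**Figure D5:**
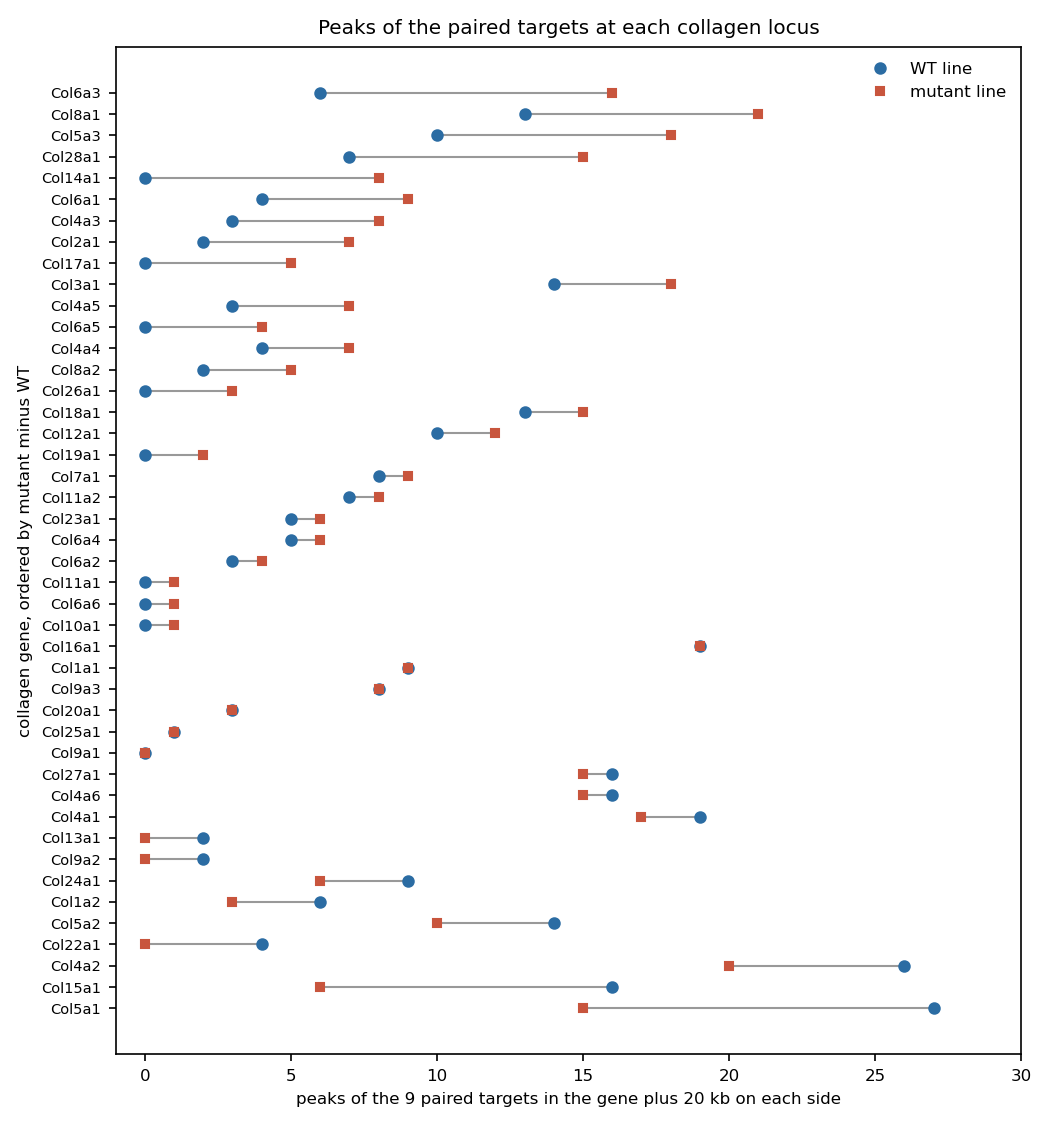
Number of peaks of the 9 paired targets in each collagen gene plus 20 kb on each side, in the WT line (blue circles) and the mutant line (red squares), as called. Genes are ordered by mutant minus WT. Col6a3 stands at the top with 6 and 16, and Col5a1 at the bottom with 27 and 15.

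At Col15a1, 3 places had peaks of 4 WT lists each and none of any mutant list. At 7196 bp before the start, the WT line had peaks of TFAP2A (21.6), UTX (10.7), ARID1A (8.83) and KMT2D (7.201). In the gene, 86137 bp from the start, it had TFAP2A (37.2), ARID1A (18.5), UTX (9.23) and SMARCC1 (8.95), and 2231 bp before the far end KMT2D (12.1), UTX (15.8), ARID1A (27.8) and SMARCC1 (17.7). The H3K4me3 peak of the mutant line at the start was in a lower part of its list, with 19.7% of peaks below it against 45.9% in the WT line.

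The positions of peaks were compared between the lines for each paired target, with a peak counted as shared where the other line's list for that target overlapped it. Of the 38 WT UTX peaks at collagen loci, 12 overlapped a mutant UTX peak, which is 31.6% (Wilson 95% interval 19.1 to 47.5, counting error only) against 53.5% at all gene loci. Of the 42 mutant peaks 28.6% (17.2 to 43.6) overlapped a WT peak against 57.2%. Away from gene ends the share was 31.4% (18.6 to 48.0) of 35 WT peaks against 51.6%. H3K4me3 peaks were shared in 92.5% of 40 WT peaks against 92.6% at all gene loci, and in 69.6% (56.7 to 80.1) of 56 mutant peaks against 81.5%. TFAP2A peaks were shared in 69.8% (56.5 to 80.5) of 53 WT peaks against 84.0%, and in 51.3% (40.3 to 62.2) of 76 mutant peaks against 54.8%. For TFAP2A away from gene ends, the share was 62.2% (46.1 to 75.9) of 37 WT peaks against 75.1%. For mutant H3K4me3 it was 47.1% (26.2 to 69.0) of 17 peaks against 65.1%. For Menin away from gene ends it was 77.8% (45.3 to 93.7) of 9 WT peaks against 63.3%. Of 20 such mutant Menin peaks it was 55.0% (34.2 to 74.2) against 55.5%. These shares compare single libraries, and neighbouring peaks of a locus are not independent.

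The 21 KMT2D peaks of collagen loci were compared with the other lists. Of these, 20 overlapped WT ARID1A (95.2%, interval 77.3 to 99.2), against 87.7% of the whole KMT2D list, and 18 overlapped WT UTX (85.7% against 88.3%). H3K4me3 of the WT line was overlapped by 3 (14.3%, 4.98 to 34.6) against 34.7% of the list, and Menin by 1 (4.76%, 0.846 to 22.7) against 37.7%. Of the 21 peaks 1 lay at a gene end, and these shares were not split by nearness to gene ends. In the mutant line ARID1A was called at 18 of the 21 places (85.7% against 84.3%) and UTX at 8 (38.1%, 20.8 to 59.1, against 60.6%). The strongest KMT2D peak of a collagen locus, 27.9 and above 91.4% of the list, lay 6863 bp beyond the end of Col7a1 inside the neighbouring gene Pfkfb4. UTX had 43.4 (WT) and 40.04 (mutant) there and ARID1A 9.39 and 26.3.

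SOX10 U had 38 peaks in collagen loci, of which mutant ARID1A overlapped 24 (63.2% against 74.7% of the whole SOX10 U list), mutant UTX 22 (57.9% against 60.7%) and mutant TFAP2A 16 (42.1% against 48.4%). WT ARID1A overlapped 12 of them (31.6%, 19.1 to 47.5, against 49.0%). The strongest was a peak inside Col4a1, 21690 bp from its start, with a fold enrichment of 31.7 above 99.5% of the list, which overlapped only a mutant UTX peak. SOX10 T had 5 peaks, at Col1a1, Col28a1, Col4a4, Col4a6 and Col6a1, and each overlapped a SOX10 U peak. TFAP2B had 27 peaks, all overlapping mutant TFAP2A (94.0% of the whole list), and 10 overlapping mutant H3K4me3 (37.0%, 21.5 to 55.8, against 64.2%). Of the 27 peaks 9 lay at a gene end, and these shares too were not split by nearness to gene ends. After the Col16a1 region the strongest TFAP2B peak was inside Col4a3 (39.1, above 97.8% of the list), where TFAP2A had 9.99 in the WT line against 73.8 in the mutant line.

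Promoter motifs were searched in the same 250 bases. Among 35 members with a promoter in the RefSeq table, the TFAP2 palindrome GCCNNNGGC was found in 14.3% against 16.3% of 21263 promoters of protein-coding genes of the same length. The SOX heptamer (A or T, A or T, C, A, A, A or T, G) was found in 22.9% against 19.3%, the AP-1 element TGANTCA in 2.86% against 6.13%, and the TATA box TATAAA in 14.3% against 11.6%. The GC box was found in 60% against 42.6% and the CCAAT box in 34.3% against 35.4%. Both strands were searched, and matches of different motifs could overlap.

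The genes that make and handle collagen were read in the same way. Of 35 genes of collagen synthesis and crosslinking, 24 had gene-end H3K4me3 in the WT line against 27 in the mutant line, beside the 49.3% and 53.8% of all genes. Those marked in the mutant line only were Colgalt1 (32.6) and Colgalt2 (11.3), which glycosylate collagen, and Adamts2 (3.34), which removes the amino propeptide and whose peak was lost on thinning. Serpinh1, the collagen chaperone HSP47, had 20.6 (WT) and 48.4 (mutant, above 99.4% of the list), and P4ha1, a prolyl hydroxylase subunit, 30.04 and 35.04. P4hb, the other subunit of that enzyme, had a KMT2D peak of 48.5 at a gene end, above 97.4% of the list. Lox, Loxl1 and Loxl2, which crosslink fibrils, and Plod2 had no gene-end H3K4me3 in either line.

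Of 12 collagen receptors 6 were marked in the WT line against 7 in the mutant line, the added gene being Itga11 (5.41). Of 16 genes of collagen degradation these were 9 and 10, with Mmp2 (15.9) added, and of 18 collagen-binding matrix genes 13 and 14, with Comp (6.07) added. Among receptors Ddr2, the fibrillar collagen receptor kinase, had 10.9 and 35.6. Mmp14, a membrane collagenase, had 16.6 and 36.8.

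Markers of the labelled cell type were mostly unmarked. Of 12 melanocyte genes, gene-end H3K4me3 was called at Mitf (10.5 WT, 19.9 mutant) and Pmel (23.3 and 60.1) in both lines and at Sox10 (8.37) in the mutant line only, and at Tyr, Tyrp1, Dct and Mlana in neither. Fibroblast markers had the mark at 2 of 10 genes in the WT line against 3 in the mutant line, with Pdgfra at 15.7 and 33.6, Pdgfrb at 9.67 and 9.88, and Acta2 (7.06) in the mutant line only, while Dcn, Lum, Fap and Thy1 had none. Keratinocyte markers had it at 2 of 8 genes in each line, endothelial markers at 1 of 6 and blood cell markers at 1 of 8. These lists hold no RNA, so whether any collagen gene was transcribed was not measured.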

How the data were processed

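CUT&RUN peak lists of 22 libraries were used as deposited. The submitters' processing notes name FastQC, MultiQC, Bowtie2 and MACS2 and the build mm10, and versions, thresholds and the caller's control are not given in the sources used here. Every listed peak has a deposited fold enrichment (a ratio) at its summit, and −log10 p and −log10 q values from the authors. All 197727 deposited peaks were kept. Depth in reads is not given in the sources used here.

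The gene table was RefSeq for GRCm38.p6, the assembly of mm10, with 21900 protein-coding genes. Gene-end peaks overlapped 1 kb around either gene end, and loci were genes plus 20 kb on each side, merged where they overlapped. Peaks were shared at an overlap of at least 1 bp. Each library's relative depth was reconstructed from fold enrichment and −log10 p, and the deeper list of a target was thinned to the depth of the other, except for BRD9, where it could not be recovered. At most 1.22% of a list's peaks had a single solution. For the others the solution nearest the commonest background was taken, and the depths and thinned counts rest on that choice. The overlap, gene-end and background steps were tested on simulated data. The thinning rule was run there on known values, so the reconstructed values of single peaks were not tested. With 1 library per line and target no test was run, and counts are set beside the share of all genes called by the same rule. Gene-end counts after thinning have no such share. Wilson 95% intervals cover counting error only.

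Full values were given for members marked by H3K4me3 in 1 line only, those with KMT2D or SOX10 at a gene end, the 5 strongest of each H3K4me3 list and the 5 loci of largest difference in each direction. Members, pathway lists, marker lists and this rule were chosen with earlier results of these data known. The result of 1 pathway list is not reported here. RefSeq promoters on mm10 matched 35 of 44 members. Computation used Python 3.11.15 with SciPy 1.17.1, pandas 2.3.3 and NumPy 2.4.6, and Matplotlib 3.10.9 drew the figures.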

Additional observations from a re-analysis of the deposited data

How the results depend on the processing

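Windows, flanks, thresholds and depth moved small counts and also some larger counts of peaks in loci, 10 of 24 of these with flanks of 50 kb. The other counts tried under these and the remaining settings stayed within 1.5 times the reported count. No paired analysis was possible because each line has 1 library per target. Leaving out regions called in at least 15 libraries moved no count by that much. For genes with a gene-end peak, a 0.5 kb window gave 1 for WT UTX (2 as reported), 1 for WT SMARCC1 (2), 0 for KMT2D (1), 3 for TFAP2B (5) and 0 for SOX10 U (1). A 2.5 kb window gave 5 for WT UTX, 10 for WT and 10 for mutant ARID1A (6 each), 7 for WT and 1 for mutant SMARCC1 (0), 1 for WT ARID2 (0), 4 for KMT2D, 1 for SOX10 T (0) and 3 for SOX10 U. Annotated starts alone gave 1 for WT UTX, 0 for KMT2D and 3 for TFAP2B. That setting leaves out the members of unknown strand, Col1a1 among them, whatever the position of their peaks. A −log10 q of at least 5 gave 1 for mutant UTX (3), 1 for WT SMARCC1 and 0 for SOX10 U. Thinning gave 1 for WT SMARCC1, and requiring the summit in the window gave 5 for WT Menin (8).

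For genes called in 1 line only, the 0.5 kb window gave 1 WT-only gene for H3K4me3 (0), 0 for UTX (1) and 1 for SMARCC1 (2), and 1 mutant-only gene for UTX (2). The 2.5 kb window gave 3 WT-only genes for UTX, 1 for ARID1A (2), 6 for SMARCC1 and 1 for ARID2 (0), and 1 mutant-only gene for ARID1A (2). Annotated starts alone gave 4 mutant-only genes for H3K4me3 (7) and 1 for ARID1A, and 0 WT-only genes for UTX and 0 for TFAP2A (1). Members of unknown strand are left out there by construction. They include Col4a3, Col14a1 and Col2a1 for H3K4me3, Col1a1 for UTX and Col5a2 for TFAP2A, whose peaks were therefore not assessed at a start. At the stricter q there were 3 mutant-only genes for Menin (5), 1 for UTX, 1 for ARID1A and 3 for TFAP2A (5), and 2 WT-only genes for UTX, 1 for SMARCC1 and 2 for TFAP2A. Thinning gave 2 mutant-only genes for Menin and 3 for TFAP2A, and 2 WT-only genes for UTX, 1 for SMARCC1 and 2 for TFAP2A. The summit rule gave 1 WT-only and 8 mutant-only genes for Menin (0 and 5). Cutting the longer list to the length of the shorter gave 0 WT-only genes for SMARCC1, and 2 WT-only and 0 mutant-only genes for TFAP2A.

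For peaks in loci, flanks of 5 kb gave 24 for WT H3K4me3 (40), 1 for mutant ARID2 (2), 0 for WT PBRM1 (1), 13 for KMT2D (21) and 17 for TFAP2B (27). Flanks of 50 kb gave 66 for WT and 88 for mutant H3K4me3 (56), 40 for WT Menin (20) and 72 for mutant Menin (45), 61 for WT UTX (38), 17 for mutant SMARCC1 (11), 1 for mutant PBRM1 (0), 34 for KMT2D, 42 for TFAP2B and 8 for SOX10 T (5). The stricter q gave 26 for mutant Menin, 26 for mutant UTX (42), 3 for mutant SMARCC1, 1 for mutant ARID2 and 0 for WT PBRM1. Thinning gave 26 for mutant Menin, 29 for WT SMARCC1 (45) and 1 for mutant ARID2. With an overlap of 50% of the shorter peak, 0 KMT2D peaks overlapped WT Menin (1) and 1 SOX10 T peak overlapped mutant H3K4me3 (2). At the stricter q, 0 endothelial markers were marked in the WT line (1). Thinning was also applied to the pathway and marker lists, a choice made after the data were seen, and it moved no list by that much. The causes of these shifts were not tested beyond what each setting changes by construction.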
